A study of Mus musculus with 18 samples.

Results

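Flavin oxidases hand the electrons of their substrate straight to oxygen through a bound FMN or FAD, the 2 cofactors made from vitamin B2 (riboflavin), and release hydrogen peroxide. The 9 genes described here were chosen by name among the 54532 genes of each expression table, for the hydroxyacid, amino acid, polyamine, acyl-CoA and gulonolactone oxidases of liver peroxisomes and microsomes: Hao1, Hao2, Dao, Ddo, Pipox, Paox, Acox2, Acox3 and Gulo. Livers came from male wild-type C57BL/6J mice, placed at 4 wk of age on an isocaloric control diet (Ctrl) or a vitamin B2-deficient diet (B2D), and RNA-seq was done with 1 library per mouse. Without drug, 5 Ctrl and 5 B2D mice were fed for 4 wk. In a separate experiment, 4 Ctrl+FF and 4 B2D+FF mice were fed for 9 wk and, during weeks 7 to 9, gavaged daily with 300 mg/kg fenofibrate (FF), an agonist of the nuclear receptor PPARα, with a dose 2 hr before collection. All 18 mice were fasted overnight, so diet was the only stated difference within each experiment, while drug, gavage and time on diet changed together between them.

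Hao1 and Hao2 encode hydroxyacid oxidases that use FMN. HAO1 is the glycolate oxidase of hepatocytes and makes glyoxylate, the precursor of oxalate, whereas HAO2 prefers longer hydroxyacids and is best known from kidney. The other genes encode enzymes that use FAD. DAO and DDO oxidize D-amino acids, PIPOX oxidizes sarcosine and pipecolate, PAOX returns acetylated polyamines to spermidine and putrescine, ACOX2 and ACOX3 start the oxidation of bile acid precursors and branched-chain fatty acids, and GULO, the microsomal member, makes the last step of vitamin C synthesis in mice. Peroxisomal oxidases work beside catalase, which removes the peroxide they make.

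The pair of hydroxyacid oxidases passed the test threshold in opposite directions, each in another experiment. Hao1 fell in B2D livers to 0.411 times its mean in Ctrl, and under fenofibrate was lower on average but did not pass. Hao2 was at the limit of detection without drug and rose in B2D+FF livers. The promoters of Hao1 and Hao2 are shown because these genes had the largest fall and the only rise past the threshold. The 250 bases before each start site were taken from RefSeq on GRCm38.p6, Hao1 at chr2:134554353-134554602 and Hao2 at chr3:98893231-98893480, both on the minus strand and written 5′ to 3′. Capitals mark CAAAGNNCA in Hao1 and GTTAAT in Hao2, on either strand, letters of the kind bound by the liver factors HNF4 and HNF1, and were chosen after the sequences were read.
Hao1: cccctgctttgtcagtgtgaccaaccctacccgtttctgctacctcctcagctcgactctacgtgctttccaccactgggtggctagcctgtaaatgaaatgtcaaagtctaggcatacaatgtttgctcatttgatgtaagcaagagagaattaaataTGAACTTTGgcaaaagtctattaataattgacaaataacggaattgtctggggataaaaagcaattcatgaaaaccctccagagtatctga
Hao2: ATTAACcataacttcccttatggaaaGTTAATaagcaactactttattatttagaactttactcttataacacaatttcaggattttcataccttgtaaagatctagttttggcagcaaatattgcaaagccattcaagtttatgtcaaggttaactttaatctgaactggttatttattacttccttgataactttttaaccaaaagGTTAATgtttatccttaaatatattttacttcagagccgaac
CAAAGNNCA occurred at bases -91 to -83 of Hao1, counted back from the start site, and in 6.36% of 32851 mouse promoter windows of 300 bases. It also occurred 2 times in the window of Pipox. GTTAAT occurred 3 times in Hao2 and in 7.10% of the windows. The printed stretch of Hao2 is 71.6% A and T, where the median over all promoters is 47.6% and the upper quartile 54.8%, so that 7.10% is a share over windows of mostly other base composition. The windows matched 8 of the 9 genes, with 12 start sites. AGGTCA, the half-site of many nuclear receptors, was found on either strand in windows of Dao and Ddo and in 16.3% of all windows. No window of the 8 genes held 2 copies of AGGTCA with 1 base between them, an arrangement present in 0.0396% of all windows, and none held TTCNNNGAA, present in 8.30%. These matches describe letters only.

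In every library 100% of the deposited FPKM (fragment counts divided by gene length and library size) corresponded to whole reads, with 15320729 to 21898502 reads per library. Pearson r of log2(FPKM + 1) between mice of a group was 0.957 to 0.990. The liver label was met by all 8 hepatocyte markers in every group, with summed levels of 34089 to 49213 FPKM without drug and 20304 to 25722 with drug. Of 8 kidney tubule markers, 6 had no read in any fenofibrate library. Kap, a kidney tubule transcript, had no read in Ctrl 1, Ctrl 2 and Ctrl 3 and 8 to 19 reads in the other 7 libraries without drug. Each table was normalized on its own. A scale common to all libraries multiplied the levels by 0.976 to 1.03. In whole liver, less RNA per cell cannot be told apart from fewer cells that express a gene.

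Per kilobase, 4 transcripts were abundant, 3 were scarce and 2 were almost absent in fasted Ctrl liver. Gulo was at 115 ± 9.94 FPKM (SD, n = 5) and Hao1 at 114 ± 24.3, and their order differed between mice, with Gulo higher in 3 of 5. Pipox followed at 88.0 ± 13.6 and Acox2 at 59.4 ± 10.5, with the ranges of neighbouring genes overlapping although Pipox was above Acox2 in 5 of 5 mice. Paox was at 3.99 ± 0.176, Ddo at 2.31 ± 0.119 and Acox3 at 1.96 ± 0.135, and none of these ranges overlapped. The order of the abundant genes by mean was not the same in other groups. In B2D livers, Hao1 had the lowest mean of the 4 at 47.0 ± 15.4 FPKM, although Acox2 was above it in only 3 of 5 mice. In Ctrl+FF livers Gulo had the lowest, at 47.8 ± 8.77 (SD, n = 4), with Pipox above it in 4 of 4 mice.

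**Figure D1:**
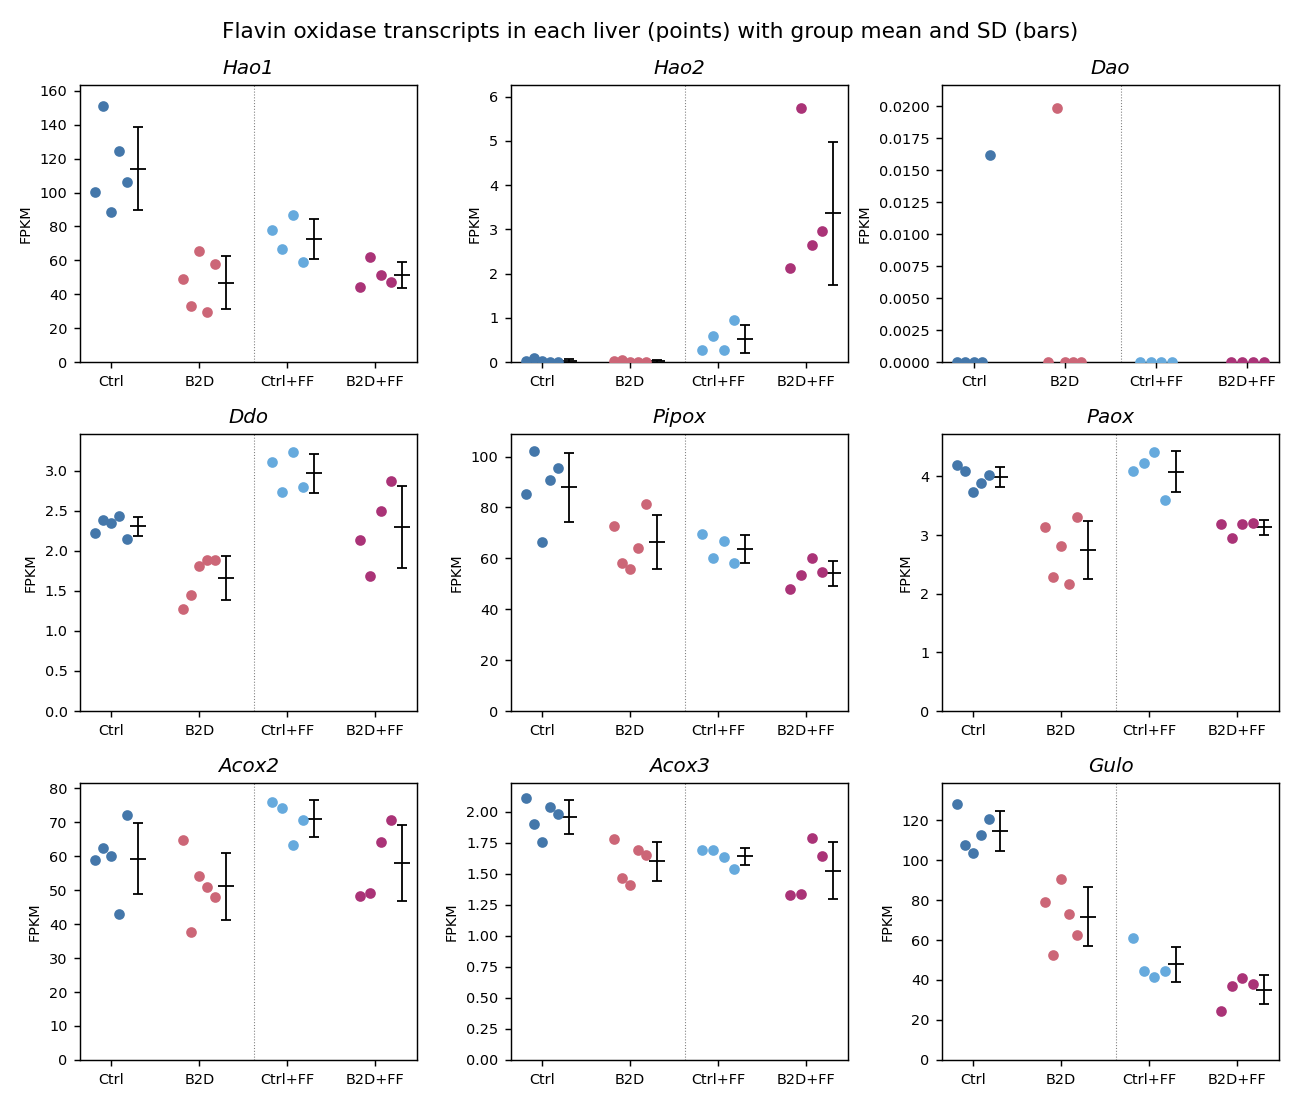
FPKM of the 9 oxidase genes in each of 18 livers (points) in the 4 groups, with the group mean and SD as bars (none for Dao, which had 2 reads in all); the dotted line separates the tables, and each vertical axis has its own scale from 0. Hao1 and Gulo points of B2D livers lie below all Ctrl points, and Hao2 points of B2D+FF livers lie between 2.12 and 5.73 FPKM, above all others.

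Without drug, all 7 tested members had a lower mean in B2D than in Ctrl, with 3 past the threshold. Hao1, Gulo and Paox passed in limma on log2(FPKM + 1) with p adjusted by Benjamini-Hochberg and a threshold of 0.05 over 11574 genes with a mean of at least 0.5 FPKM, and 4 others did not. Hao2 and Dao were under that level. Of all genes tested, 1.94% were called lower and 0.769% higher, and no member was called higher, by limma, by voom on the recovered reads or at an unadjusted p under 0.05. At an unadjusted p under 0.05, 6 of 7 members were lower, beside 10.1% of all genes. The groups did not overlap for 4 members, Hao1, Gulo, Paox and Ddo, beside 2.89% of all genes with every B2D value under every Ctrl value. The median log2 fold change of the 7 members was -0.40, and that of all genes was -0.0013. For the 918 genes averaging at least 50 FPKM over the 18 libraries it was -0.097. Log2 fold changes on this scale understate the change of genes with few FPKM.

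Hao1 (ENSMUSG00000027261), on the minus strand of chromosome 2 of GRCm38 from 134497361 to 134554368, had 100.3, 151, 88.7, 124 and 106 FPKM in Ctrl 1 to Ctrl 5. In B2D 1 to B2D 5 it had 49.1, 33.3, 65.3, 29.3 and 57.7 FPKM, from 1300 to 2619 reads each. Every B2D liver was below every Ctrl liver, and the B2D mice had a coefficient of variation of 32.9%, with B2D 4 and B2D 2 lowest. The log2 fold change was -1.30 (SE 0.223, 95% interval -1.79 to -0.82, limma adjusted p = 0.0118). The exact two-sided permutation test gave p = 0.00794, the smallest that 5 against 5 mice allow. From the lowest log2 fold change, Hao1 ranked 51 of 11574 genes. Hao1 passed in each of the 10 leave-one-out fits, with adjusted p from 0.0070 to 0.0427, and missed at 0.0548 when genes of any level were tested.

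Gulo (ENSMUSG00000034450), on chromosome 14 from 65986786 to 66009207 on the minus strand, encodes L-gulonolactone oxidase. It had 128, 107, 104, 113 and 120.4 FPKM in Ctrl 1 to Ctrl 5 and 79.1, 52.4, 90.7, 73.1 and 62.5 in B2D 1 to B2D 5. The groups did not overlap, and the spread was wider in B2D (SD 14.8) than in Ctrl (SD 9.94). The mean fell by 37.5%, with a log2 fold change of -0.69 (SE 0.143, limma adjusted p = 0.0281, exact permutation p = 0.00794). The call was lost, at limma adjusted p from 0.0533 to 0.0753, without Ctrl 1, Ctrl 2, Ctrl 4, Ctrl 5, B2D 4 or B2D 5, at 0.0672 with quantile normalization and at 0.0778 with no filter on level.

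Paox (ENSMUSG00000025464), on the plus strand of chromosome 7 from 140115799 to 140137224, encodes the peroxisomal polyamine oxidase. Its levels were 4.19, 4.09, 3.74, 3.89 and 4.02 FPKM in Ctrl 1 to Ctrl 5 and 3.13, 2.29, 2.82, 2.17 and 3.30 in B2D 1 to B2D 5. All B2D livers lay below all Ctrl livers, from 192 to 308 reads against 349 to 413. The mean fell by 31.2%, with a log2 fold change of -0.42 (95% interval -0.64 to -0.21, limma adjusted p = 0.0459, exact permutation p = 0.00794). The call was kept with a pseudocount of 0.1, quantile normalization, voom and all 4 groups in 1 fit, at adjusted p from 0.0059 to 0.0467, and without B2D 1 or B2D 5. Leaving out any of the other 8 mice (Ctrl 1 to Ctrl 5, B2D 2, B2D 3 or B2D 4) gave limma adjusted p from 0.0615 to 0.115, upper-quartile rescaling gave 0.0542, and no filter on level gave 0.112. Paox shares 142 of its 4907 exon bases with Echs1 on the other strand, and the libraries do not mark strand. Echs1, the mitochondrial enoyl-CoA hydratase, averaged 36.4 ± 6.10 FPKM in Ctrl livers against 30.1 ± 5.36 in B2D livers (log2 fold change -0.27, limma adjusted p = 0.359).

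Among the amino acid oxidases, Ddo came closest to the threshold. Ddo (ENSMUSG00000063428), on chromosome 10 from 40630011 to 40681847 on the plus strand, oxidizes D-aspartate. Ddo had 2.22, 2.38, 2.35, 2.43 and 2.15 FPKM in Ctrl 1 to Ctrl 5 and 1.28, 1.45, 1.81, 1.88 and 1.88 in B2D 1 to B2D 5. The groups did not overlap, with the mean 28.0% lower in B2D, but the limma adjusted p was 0.0927 (log2 fold change -0.32, 95% interval -0.52 to -0.12). Pipox (ENSMUSG00000017453), on chromosome 11 from 77880615 to 77894096, had 85.3, 102, 66.4, 90.7 and 95.4 FPKM in Ctrl 1 to Ctrl 5 and 72.9, 58.3, 55.7, 64.2 and 81.6 in B2D 1 to B2D 5. Its groups overlapped through Ctrl 3, and the log2 fold change was -0.40 (95% interval -0.71 to -0.09, limma adjusted p = 0.169). Dao (ENSMUSG00000042096), on chromosome 5 from 114003703 to 114025682, had 1 read in Ctrl 5, 1 read in B2D 2 and none in the other 16 libraries, so that no comparison was possible. Both of the libraries with a Dao read were among those with Kap reads, and any link was not tested.

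The acyl-CoA oxidases had the smallest log2 fold changes of the 7. Acox2 (ENSMUSG00000021751), on chromosome 14 from 8225511 to 8259353, encodes the branched-chain acyl-CoA oxidase that shortens the bile acid side chain, and ranged from 43.1 to 72.2 FPKM in Ctrl (median 60.2) and from 37.6 to 64.9 in B2D (median 51.1). The ranges overlapped widely, with a log2 fold change of -0.21, a 95% interval of -0.56 to 0.14 and a limma adjusted p of 0.508. Acox3 (ENSMUSG00000029098), on chromosome 5 from 35583040 to 35615352, encodes the pristanoyl-CoA oxidase, and ranged from 1.76 to 2.11 FPKM in Ctrl and from 1.41 to 1.78 in B2D. Its ranges met only at their edge, between Ctrl 3 and B2D 1, and the log2 fold change was -0.19 (95% interval -0.36 to -0.01, limma adjusted p = 0.245). Acox3 shares 700 of its 11521 exon bases with the antisense gene 4931431C16Rik, which was at a mean of 0.0140 FPKM in Ctrl and listed at 0 in B2D.

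With fenofibrate, Hao2 was the only member called, and B2D+FF livers had more of it than Ctrl+FF livers. Of 11878 genes tested, 2.24% were called higher and 2.21% lower. None of the 8 tested members was called lower, although 5 of them were lower at an unadjusted p under 0.05 in limma, beside 9.93% of all genes, and none was called lower by voom on the reads. The 7 members other than Hao2 all had a log2 fold change below 0, from -0.49 to -0.07, where the median of all genes was 0.01. Every B2D+FF liver was below every Ctrl+FF liver for 2 members, Paox and Gulo, beside 6.44% of all genes, and above for Hao2 alone, beside 7.82%.

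**Figure D2:**
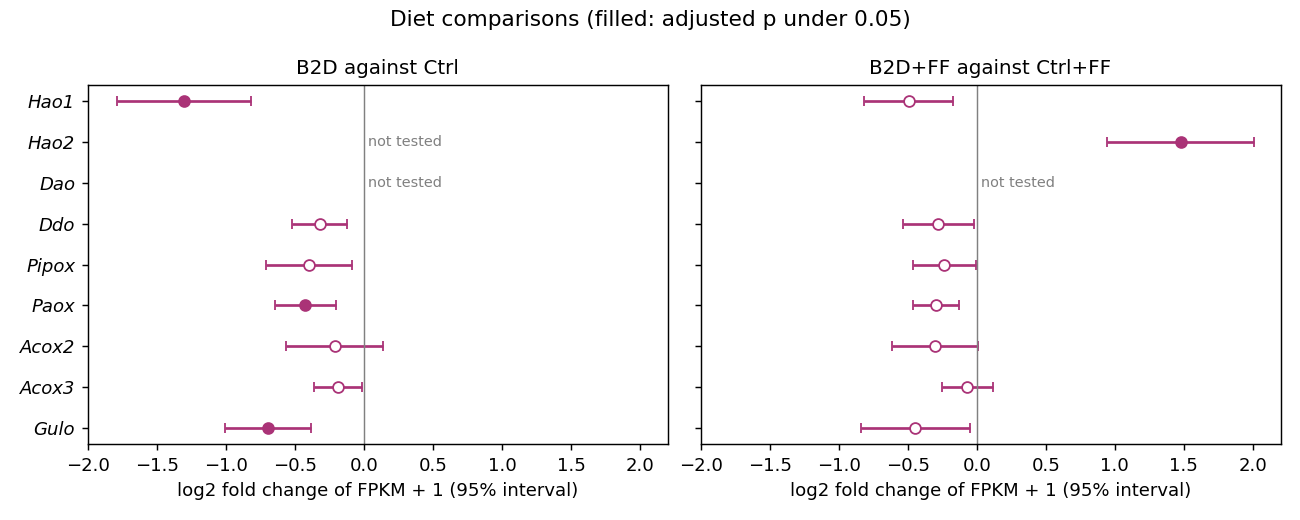
Log2 fold change of FPKM + 1 for each member (horizontal axis) with its 95% interval in limma, for B2D against Ctrl (n = 5 each) and B2D+FF against Ctrl+FF (n = 4 each); filled points have an adjusted p under 0.05. Hao1, Gulo and Paox are filled on the left at -1.30, -0.69 and -0.42, and Hao2 alone on the right at 1.48.

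Hao2 (ENSMUSG00000027870) lies on the minus strand of chromosome 3 from 98874521 to 98893239. Its levels were 0.268, 0.593, 0.281 and 0.950 FPKM in Ctrl+FF 1 to Ctrl+FF 4 and 2.12, 5.73, 2.64 and 2.95 in B2D+FF 1 to B2D+FF 4. The groups did not overlap, with 9 to 33 reads per Ctrl+FF library and 74 to 239 per B2D+FF library. The mean of B2D+FF was 6.43 times that of Ctrl+FF, a log2 fold change of 1.48 (SE 0.235, 95% interval 0.95 to 2.01, limma adjusted p = 0.0118, exact permutation p = 0.0286, the smallest that 4 against 4 mice allow). From the highest log2 fold change, Hao2 ranked 28 of 11878 genes. It passed in each of the 8 leave-one-out fits, with adjusted p from 0.0080 to 0.0436, and voom on the reads gave a log2 fold change of 2.76. The level stayed low, near that of Paox at 3.13 ± 0.124 FPKM in the same livers. Kap had no read in these 8 libraries, and the 8 kidney tubule markers together had 1 to 5 reads per Ctrl+FF library and 0 to 3 per B2D+FF library.

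Without drug, Hao2 had 1, 3, 1, 0 and 0 reads in Ctrl 1 to Ctrl 5 and 1, 2, 0, 0 and 0 in B2D 1 to B2D 5, so a diet difference was not detectable at this depth. In the fit of all 18 libraries, the diet effect with fenofibrate minus that without was 1.49 for Hao2 on the log2(FPKM + 1) scale, close to the 1.48 of the fenofibrate comparison alone. Hao2 met the filter of 0.5 FPKM in that fit only through the B2D+FF libraries, and its effect without drug had no measurable value, so no difference between the experiments is drawn from its limma adjusted p of 0.0069. That call was lost with a pseudocount of 0.1 (adjusted p = 0.0716) and in voom on the reads (adjusted p = 0.306). Among 11862 genes, 0.126% had a larger effect with fenofibrate at this threshold and 0.101% a smaller one.

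Hao1 was lower in B2D+FF than in Ctrl+FF on average but did not pass. It had 77.8, 66.9, 86.6 and 59.2 FPKM in Ctrl+FF 1 to Ctrl+FF 4 and 44.6, 61.8, 51.2 and 47.4 in B2D+FF 1 to B2D+FF 4, and the groups overlapped through B2D+FF 2 and Ctrl+FF 4. The log2 fold change was -0.49 (95% interval -0.81 to -0.17, limma adjusted p = 0.0866, exact permutation p = 0.0571). The diet effect with fenofibrate minus that without was 0.81 (95% interval 0.19 to 1.43, limma adjusted p = 0.288), so the smaller difference under fenofibrate was not past the threshold. Ctrl+FF livers had less Hao1 than Ctrl livers, 72.6 ± 12.02 (n = 4) against 114 ± 24.3 FPKM (n = 5), or 74.0 against 113 on the common scale, while B2D+FF livers at 51.2 ± 7.53 FPKM were near B2D livers at 47.0 ± 15.4. These levels are set side by side without a test, since drug and time on diet cannot be told apart.

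The mean of Gulo was lower in Ctrl+FF and B2D+FF livers, at 47.8 and 35.1 FPKM, than in Ctrl and B2D livers, at 115 and 71.5. Single livers overlapped, with Ctrl+FF 1 above B2D 2, which had 52.4 FPKM. These levels are side by side without a test, since drug, gavage and time on diet changed together. Gulo had 60.8, 44.3, 41.6 and 44.5 FPKM in Ctrl+FF 1 to Ctrl+FF 4 and 24.5, 36.7, 41.0 and 38.1 in B2D+FF 1 to B2D+FF 4. Every B2D+FF liver was below every Ctrl+FF liver, by a narrow margin between B2D+FF 3 and Ctrl+FF 3, and the limma adjusted p was 0.186 (log2 fold change -0.45, 95% interval -0.84 to -0.05). Paox had 4.09, 4.22, 4.42 and 3.60 FPKM in Ctrl+FF 1 to Ctrl+FF 4 and 3.19, 2.95, 3.18 and 3.20 in B2D+FF 1 to B2D+FF 4. Its groups did not overlap either, the mean of B2D+FF was 0.767 times that of Ctrl+FF, and the limma adjusted p was 0.0577 (log2 fold change -0.30). Paox passed at 0.0377 with upper-quartile rescaling and at 0.0431 without Ctrl+FF 4. Echs1, which overlaps Paox, averaged 47.0 ± 8.34 and 48.3 ± 3.71 FPKM there.

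The other 4 tested members had overlapping groups with fenofibrate. Ddo ranged from 2.73 to 3.23 FPKM in Ctrl+FF and from 1.68 to 2.88 in B2D+FF, with a log2 fold change of -0.28 (95% interval -0.54 to -0.02, limma adjusted p = 0.206). Pipox ranged from 58.1 to 69.6 and from 47.9 to 60.1 FPKM, with a log2 fold change of -0.23 (95% interval -0.46 to -0.01, limma adjusted p = 0.221). Acox2 ranged from 63.4 to 76.0 and from 48.2 to 70.7 FPKM, with B2D+FF 1 and B2D+FF 2 lowest and a log2 fold change of -0.30 (95% interval -0.61 to 0.01, limma adjusted p = 0.245). Acox3 ranged from 1.54 to 1.69 and from 1.32 to 1.79 FPKM, with a log2 fold change of -0.07 (95% interval -0.25 to 0.12, limma adjusted p = 0.686). For these 4 genes, Gulo and Paox, the difference of the diet effects between the experiments had an adjusted p from 0.694 to 0.935 in limma, and each 95% interval included 0.

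**Figure D3:**
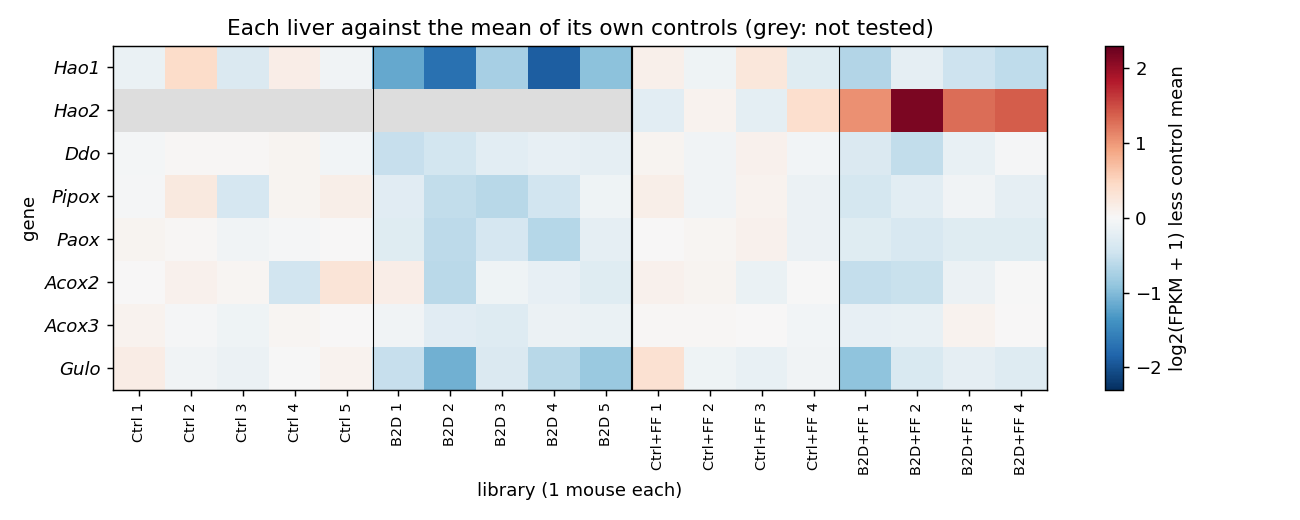
Log2(FPKM + 1) of each tested member (rows) in each library (columns) less the mean of the control libraries of the same table, in colour from blue (lower) to red (higher); grey marks Hao2 in the table where it was not tested. Blue covers nearly all B2D and B2D+FF cells except the Hao2 row, with the darkest blue for Hao1 in B2D 2 and B2D 4.

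Most members were below their control mean in each B2D and B2D+FF liver, but to differing extents. On the log2(FPKM + 1) scale, Gulo was at -0.92 from its control mean in B2D+FF 1 and at -0.36, -0.20 and -0.30 in B2D+FF 2 to B2D+FF 4. Without B2D+FF 1 its log2 fold change was -0.29. Acox2 was at -0.55, -0.52, -0.14 and -0.004 in B2D+FF 1 to B2D+FF 4. Leaving Hao2 aside, all 7 tested members were below their control mean in B2D 2, B2D 3, B2D 4 and B2D 5, and 6 of 7 in B2D 1, where Acox2 was above. The median difference of the 7 members ran from -0.60 in B2D 2 to -0.21 in B2D 5 on the log2(FPKM + 1) scale. In B2D+FF 1 and B2D+FF 2 all 7 were below their control mean, and in B2D+FF 3 and B2D+FF 4 there were 6, with Acox3 the exception. The 7 genes of a library share its scaling and are not independent, so these counts are a description. Relative spread was small for Paox and Ddo in Ctrl livers, with a coefficient of variation of 4.42% and 5.17%, and reached 18.2% and 16.7% in B2D. The share of reads from mitochondrial genes was 5.22% to 6.59% in Ctrl and 5.82% to 9.41% in B2D, highest in B2D 4, which also had the least Hao1 and Paox, and its part in the levels was not tested. Without B2D 4 the limma adjusted p was 0.0260 for Hao1, 0.0603 for Gulo and 0.105 for Paox. With fenofibrate the share was 8.02% to 9.27% in Ctrl+FF and 6.71% to 8.78% in B2D+FF.

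Few genes around these enzymes passed the test without drug. In B2D against Ctrl, the 15 other flavin oxidases tested had a median log2 fold change of -0.06. Of 12 genes that remove peroxide and related oxidants, 11 were below 0 with a median of -0.27, and 1 passed, lower (Prdx6, a peroxiredoxin, log2 fold change -0.50, limma adjusted p = 0.0340). Of 12 glyoxylate and glycolate genes, 1 passed, lower (Aldh4a1, of proline breakdown, -0.54, adjusted p = 0.0281), with a median of -0.22. Of 21 genes of bile acid and branched-chain side-chain oxidation, the route of Acox2 and Acox3, 1 passed, lower (Amacr, the racemase ahead of both oxidases, -0.50, adjusted p = 0.0326), with a median of -0.03. In that list voom on the reads called 1 lower and 1 higher, and 3 were lower and 3 higher at an unadjusted p under 0.05 in limma. Leaving out a mouse kept the call of Prdx6 in 3, of Aldh4a1 in 5 and of Amacr in 3 of 10 fits.

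Around Gulo, 1 of 13 ascorbate and glucuronate genes passed in B2D against Ctrl, lower (Sord, sorbitol dehydrogenase, log2 fold change -0.82, limma adjusted p = 0.0290, kept in 5 of 10 leave-one-out fits), with a median of -0.23 and 12 genes below 0. In limma none passed among 8 lysine and pipecolate, 16 polyamine and 26 peroxisome biogenesis genes, with 4, 2 and 2 at an unadjusted p under 0.05, none called by voom, and medians of -0.05, -0.17 and -0.04. The genes that assemble peroxisomes lay near the median of all genes, -0.0013, while the 7 oxidase genes had a median of -0.40. The difference between the lists was not tested.

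Under fenofibrate, ascorbate and glucuronate genes passed in both directions. In limma none of the 15 other flavin oxidases, 12 peroxide, 12 glyoxylate or 26 biogenesis genes passed, with 3, 1, 2 and 4 at an unadjusted p under 0.05, and voom on the reads called 1, among the other flavin oxidases. Of the 13 ascorbate and glucuronate genes, 2 were lower and 2 higher. Rgn, the gluconolactonase just ahead of Gulo in vitamin C synthesis, fell (log2 fold change -0.79, limma adjusted p = 0.0094), and passed in each of 8 leave-one-out fits, as did Gsto1, which can reduce dehydroascorbate and rose (0.62, adjusted p = 0.0103). The other lower gene was Gstt1, a glutathione transferase (-0.43, limma adjusted p = 0.0455), named outside the rule after its values were seen. Ugdh, which makes UDP-glucuronate, rose with a call kept in 1 of the 8 (0.58, adjusted p = 0.0448). Among 16 polyamine genes 2 rose, Slc3a2, a subunit of amino acid transporters, and Arg1, the arginase of the urea cycle (0.72 and 0.64, adjusted p = 0.0239 and 0.0327), with the call kept in 4 and 2 of 8 leave-one-out fits. Gldc, of the glycine cleavage system, rose among 8 lysine and pipecolate genes (0.58, adjusted p = 0.0099, kept in 8 of 8), and Abcd2, a peroxisomal acyl-CoA transporter that is also listed as higher in female liver, among the 21 side-chain genes (0.38, adjusted p = 0.0485, with no call in any of the 8 leave-one-out fits).

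**Figure D4:**
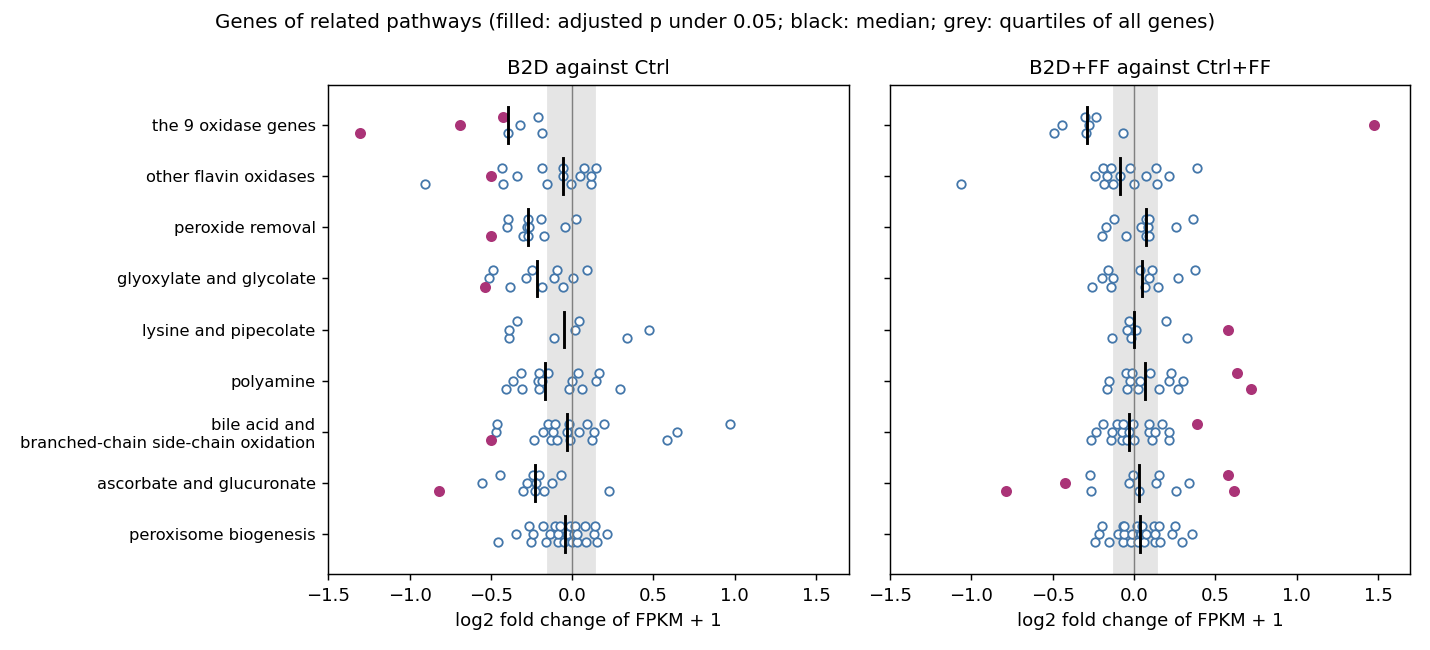
Log2 fold change of FPKM + 1 (horizontal axis) of each tested gene in the 9 oxidase genes and 8 related lists (rows), for both diet comparisons; filled points have an adjusted p under 0.05, black lines are medians and the grey band runs between the quartiles of all genes. The oxidase genes have the lowest medians of the rows, -0.40 and -0.29, and Hao2 lies far to the right in the fenofibrate comparison at 1.48.

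Genes that differ between male and female mouse liver moved with the diet in these male mice. Of 19 tested genes higher in male liver, 14 were lower in B2D than in Ctrl in limma and none was higher (median log2 fold change -1.68), and of 11 higher in female liver 7 were higher and none lower, with a median of 1.56. With fenofibrate, 8 of 18 and 4 of 9 passed in the same directions, with medians of -0.54 and 0.55. Their part in the levels of Hao1, Gulo, Paox and Hao2 was not tested. Few markers of liver cells passed. In B2D, 2 of 8 Kupffer cell markers were lower, C1qa and Clec4f (log2 fold change -0.50 and -0.47, limma adjusted p = 0.0275 and 0.0412, kept in 4 and 1 of 10 leave-one-out fits), with summed levels of 82.0 to 115 FPKM against 104 to 131 in Ctrl, and no hepatocyte marker passed in limma or voom, with 3 of 8 at an unadjusted p under 0.05. In B2D+FF, Tat and Pck1, hepatocyte genes of amino acid breakdown and glucose production, rose and Serpina1a fell. Their log2 fold changes were 1.35, 0.84 and -0.60 (limma adjusted p = 0.0188, 0.0407 and 0.0312, kept in 7, 2 and 3 of 8 leave-one-out fits). The endothelial marker Lyve1 rose (0.77, limma adjusted p = 0.0294, kept in 4 of 8). The other 6 of the 7 endothelial markers were below 0, with a list median of -0.12. Summed hepatocyte markers overlapped between Ctrl+FF, 22230 to 25722 FPKM, and B2D+FF, 20304 to 23570.

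The genes most like each called member were sought among 9930 protein-coding genes tested in both tables, by Pearson r over 18 libraries of log2(FPKM + 1) less its table's mean. Such values share the diet difference and each library's scaling, and are a description. For Hao1 these were Cyp7b1, an oxysterol hydroxylase on the male list (r = 0.947), Adh4, an alcohol dehydrogenase (0.937), and Hsd3b2, a steroid dehydrogenase gene (0.932), and all 3 were lower in both diet comparisons at an adjusted p from 0.0039 to 0.0469 in limma. For Gulo they were Pdxk, the pyridoxal kinase (0.918), Tmem19 (0.893) and Mlec, an endoplasmic reticulum lectin (0.893). For Paox they were Serpind1, heparin cofactor II (0.937), Tk1, thymidine kinase (0.925), and Nat8 (0.924). For Hao2, whose variation lies almost wholly in the fenofibrate libraries, they were Atp1b1, a sodium pump subunit (0.887), Btg2 (0.872) and Fgf21, a fasting hormone and PPARα target (0.855). Fgf21 averaged 2.57 ± 1.61 FPKM in Ctrl+FF livers against 19.7 ± 12.4 in B2D+FF livers (log2 fold change 2.49, limma adjusted p = 0.0137). Without drug, where Hao2 was at the limit of detection, Fgf21 averaged 15.0 ± 3.03 FPKM in Ctrl and 21.1 ± 6.03 in B2D livers. Atp1b1 and Btg2 averaged 18.9 and 4.69 FPKM in Ctrl livers. Subtracting each table's mean hides such differences of level between the experiments.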

How the data were processed

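Liver mRNA was profiled in 18 mice with 1 library each, made with the NEBNext Ultra kit, which as named does not mark strand. Per the labels and methods, the authors ran STAR on paired reads against mm10, took gene counts from featureCounts, and deposited FPKM in 1 table for each experiment, with GRCm38 coordinates but without counts. The deposited FPKM were used as they stand. Reads behind each value were recovered from its step (tolerance 0.05 of a read) and showed that the authors scaled each table by median-of-ratios. The labels give each mouse its own number, counted here from 1 in each group. No column was left unmapped.

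The limma package (version 3.58.1, R 4.3.3, with a trend) was applied to log2(FPKM + 1) of genes averaging at least 0.5 FPKM in the libraries used, for each table alone, with Benjamini-Hochberg adjustment over all genes and a threshold of 0.05. The difference of diet effects was a contrast in 1 fit of 18 libraries. The study's own test, DESeq2, was not used here. Each member was also tested by an exact two-sided permutation test. P-values set a difference of group means against the spread between these mice. Intervals at 95% are those of limma.

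Alternatives were a pseudocount of 0.1, no filter, a mean of at least 5 FPKM, upper-quartile rescaling, quantile normalization, voom on the recovered reads, all 4 groups in 1 fit, and each library left out. Named are all 9 members, from each list up to 3 genes past the threshold with the smallest adjusted p, and the 3 genes most like each called member. The result of 1 list gene is not reported here. Members, lists and markers were chosen with earlier results of these data known. Exon overlaps are from GENCODE vM21.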

Additional observations from a re-analysis of the deposited data

Results flagged for a closer look

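In 30 checks of a member's FPKM within a group of 4 or 5 mice, 2 had a single mouse far from the rest by Dixon's ratio at the 95% level, about the number that chance gives at 1 in 20. Paox was at 2.95 FPKM in B2D+FF 2, against 3.18 to 3.20 in the other 3 mice of the group. Gulo was at 60.8 FPKM in Ctrl+FF 1, against 41.6 to 44.5 in the other 3, and without that mouse the limma adjusted p of Gulo in the fenofibrate comparison was 0.379. The contrast of the diet effects over all 18 libraries was 1.49 for Hao2 on the log2(FPKM + 1) scale and passed in limma, but the drug-free libraries had 0 to 3 reads each, and the call was lost with a pseudocount of 0.1 and in voom on the reads.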

How the results depend on the processing

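The number of members past the threshold in B2D against Ctrl was 3. It was 0 with no filter on level and 1 to 3 when a mouse was left out, and 2 or 3 under the other alternatives. In B2D+FF against Ctrl+FF it was 1, with 0 at a mean of at least 5 FPKM, where Hao2 is not tested, 2 with upper-quartile rescaling, where Paox is added, and 1 to 2 when a mouse was left out. For the diet effect with fenofibrate minus without it was 1, with 0 at a pseudocount of 0.1, 0 at a mean of at least 5 FPKM and 0 in voom on the reads, and 1 in each leave-one-out fit. That member was Hao2, which met the filter only through the B2D+FF libraries and had no measurable effect without drug. No difference between the experiments is drawn from this call. Of 420 fold changes of single members under an alternative, 393 kept direction and side of the threshold, 21 lost the call, 2 gained it and 4 turned sign, all 4 near 0 in the contrast between experiments: Ddo at -0.0194 with upper-quartile rescaling and negative without B2D 1 or B2D+FF 4 (from -0.0399 to 0.138 when a mouse was left out), and Acox2 at 0.0174 without Ctrl 4 (from -0.194 to 0.0174). Over all genes, the calls in B2D against Ctrl went from 313 to 67 with no filter and to 731 with all 4 groups in 1 fit, those in B2D+FF against Ctrl+FF from 529 to 272 with no filter, and those of the contrast from 27 to 16 with a pseudocount of 0.1 and to 12 in voom. Leaving out a mouse gave 98 to 332, 175 to 596 and 17 to 66. The cause was not tested. No paired analysis was possible because each mouse has its own number and no number is shared between groups. Depth limits Dao and, without drug, Hao2.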
